A study of Mus musculus with 7 samples.

Results

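Keratins are the intermediate filament proteins of epithelial cells, and each filament is built from a type I keratin paired with a type II keratin. Stratified epithelia such as the epidermis make KRT5 and KRT14 in the basal layer and KRT1 and KRT10 above it, the hair follicle has its own sets in the inner root sheath and the hair shaft, and simple and glandular epithelia make KRT8 and KRT18 together with KRT7 or KRT19. In the mammary gland the luminal cells carry the simple keratins and the myoepithelial cells carry KRT5, KRT14 and KRT17. Loricrin, involucrin, filaggrin 2 and trichohyalin are cross-linked into the cornified envelope or the inner root sheath, and p63 (Trp63) is the transcription factor of basal epithelial cells. Most of these genes are not typical of fibroblasts, the cells that were injected. The genes described are the 53 protein-coding genes with a mouse symbol of Krt followed by a digit in GENCODE M21, plus Tchh, Lor, Flg2, Ivl and Trp63, which makes 58 of the 46603 genes in the count files. By textbook sites of expression, 20 keratins were placed with the epidermis and other stratified epithelia, 24 with the hair follicle and nail, 6 with simple epithelia or the mammary gland, and 3 in no group.

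The libraries come from 3 pieces of NM1 KO tumor and 4 pieces of KO+NM1 tumor. KO cells are a line of mouse embryonic fibroblasts in which nuclear myosin 1, an isoform of Myo1c, was deleted with CRISPR/Cas9. KO+NM1 cells are these cells with an NM1 coding sequence carrying HA and V5 tags, put back by a lentiviral vector under neomycin selection, with single clones checked by Western blot. Both were injected into female nude mice 16 weeks of age (Balb/c nude in the methods), and tumors were taken at the end of 30 days according to the sample descriptions. The study's methods give a slightly shorter time. Nude mice carry a loss-of-function mutation of Foxn1, and they have skin with follicles whose hair shafts are defective. The study names the mammary pad as the injected site in one place and the right flank in another, and both sites hold host skin, fat or gland close to the tumor. By the sample descriptions each condition had 1 tumor, divided into 4 parts, so that every SD and p-value here covers the spread between pieces and may hold no difference between mice. A count per gene does not separate transcripts of injected cells from those of the host. In such bulk samples fewer cells of a type and less RNA per cell cannot be told apart either.

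The reads assigned to genes numbered 24088309 to 28326568 in a piece. Levels are given as CPM, read counts scaled per megaread of the TMM-adjusted library size, and a gene without reads may have reached 0.099 to 0.148 CPM (3 counts, counting error only). Myo1c (ENSMUSG00000017774, chromosome 11 of GRCm38 from 75650504 to 75673910) averaged 302 ± 12.5 CPM (SD, n = 3) in KO and 408 ± 22.5 CPM (SD, n = 4) in KO+NM1 tumor, which made a log2 fold change of -0.43 (± 0.13 standard error, SE, edgeR adjusted p = 0.031). This count pools NM1 with the other isoforms of the gene, so it checks the labels only in part. Its adjusted p was 0.0508, 0.072 and 0.0647 without KO piece 01, 02 and 03, and 0.062 without KO+NM1 piece 02 (edgeR). The fibroblast list (Col1a1, Vim, Pdgfra and 5 others) summed to 9618 to 15633 CPM in the KO pieces and 3495 to 12578 CPM in the KO+NM1 pieces. KO+NM1 piece 01 stood apart by the B cell and lymph node list, at 4555 CPM against 6.26 to 16.7 CPM in the other KO+NM1 pieces.

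Keratin transcripts were present in every piece, but different sets of them in different pieces. KO piece 02 was the only KO piece rich in keratins, with 83261 keratin reads, while KO pieces 01 and 03 held 3778 and 1676. The KO+NM1 pieces 01 to 04 held 9432, 34013, 23464 and 43669. In KO piece 02, 55.2% of keratin reads belonged to epidermal keratins (Wilson 95% interval 54.9 to 55.6) and 42.7% to hair follicle keratins (42.4 to 43.1), with 2% (1.91 to 2.1) from simple keratins. The KO+NM1 pieces had the reverse make-up, with simple keratins at 78.4% (77.6 to 79.3), 78.2% (77.8 to 78.7), 82.3% (81.9 to 82.8) and 71.4% (71 to 71.8) in pieces 01 to 04. Their hair follicle share was 0.324% to 0.379%. In KO piece 01 the hair follicle keratins held the larger share, at 57.5% (56 to 59.1), and KO piece 03 mostly simple, at 76.4% (74.3 to 78.3) of its few reads. These intervals cover counting error only.

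**Figure D1:**
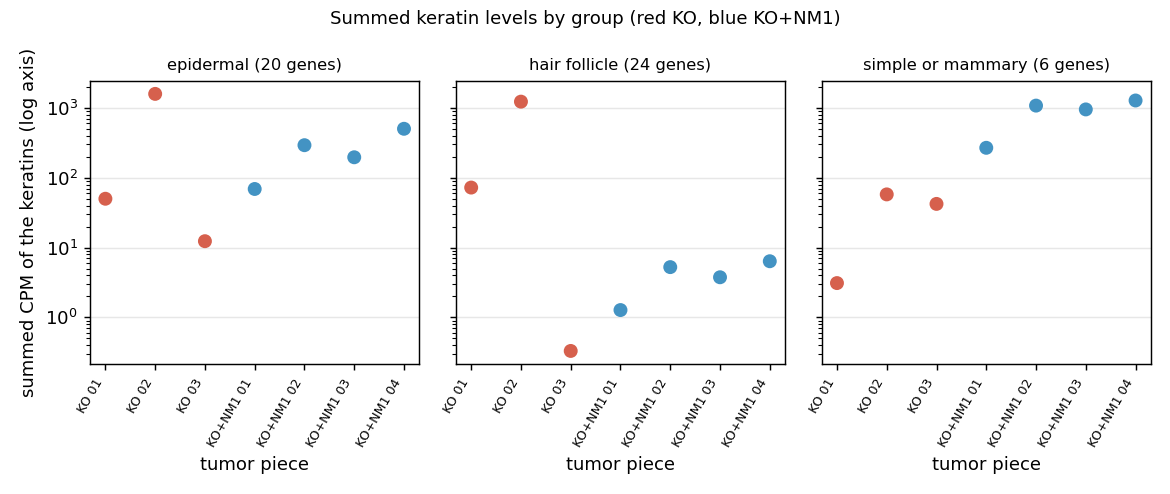
Summed CPM on a log axis of the epidermal, hair follicle and simple or mammary keratins in each tumor piece, 3 KO pieces in red and 4 KO+NM1 pieces in blue. KO piece 02 is highest for the epidermal keratins (1593 CPM) and the hair follicle keratins (1233 CPM), and the KO+NM1 pieces are highest for the simple keratins (269 to 1281 CPM).

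Promoter windows are shown for 4 members that mark the ends of this pattern. Krt25 and Krt71, a type I and a type II keratin of the inner root sheath, and Lor, the main envelope protein of the granular layer, were seen mainly in KO piece 02, and Krt7, a simple type II keratin of ducts and glands, in the KO+NM1 pieces. Each window runs 5′ to 3′ on the strand of the gene from 250 bases before to 50 bases after the RefSeq start, on build GRCm38.p6. Capitals mark TATAAA, the TATA box, in Krt25, Krt71 and Lor, TGANTCA, the core bound by AP-1 factors, in Lor, and GGGCGG, the GC box, on either strand in Krt7.
Krt25 (chr11:99322902-99323201, minus strand): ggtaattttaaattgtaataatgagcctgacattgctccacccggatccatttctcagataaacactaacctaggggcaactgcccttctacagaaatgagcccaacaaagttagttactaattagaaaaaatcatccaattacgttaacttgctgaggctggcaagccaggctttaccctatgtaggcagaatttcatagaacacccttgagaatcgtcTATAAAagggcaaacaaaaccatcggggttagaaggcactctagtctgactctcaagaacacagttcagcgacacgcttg
Krt71 (chr15:101743048-101743347, minus strand): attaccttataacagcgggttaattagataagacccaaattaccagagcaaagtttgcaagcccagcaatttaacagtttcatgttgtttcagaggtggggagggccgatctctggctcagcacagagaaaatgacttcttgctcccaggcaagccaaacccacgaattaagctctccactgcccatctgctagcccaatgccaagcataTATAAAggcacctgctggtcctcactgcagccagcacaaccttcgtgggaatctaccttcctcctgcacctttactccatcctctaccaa
Lor (chr3:92083093-92083392, minus strand): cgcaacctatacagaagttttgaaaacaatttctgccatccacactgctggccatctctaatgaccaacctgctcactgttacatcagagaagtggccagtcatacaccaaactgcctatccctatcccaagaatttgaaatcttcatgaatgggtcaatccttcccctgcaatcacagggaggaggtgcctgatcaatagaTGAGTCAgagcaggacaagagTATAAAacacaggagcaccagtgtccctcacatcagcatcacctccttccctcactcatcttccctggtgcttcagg
Krt7 (chr15:101412153-101412452, plus strand): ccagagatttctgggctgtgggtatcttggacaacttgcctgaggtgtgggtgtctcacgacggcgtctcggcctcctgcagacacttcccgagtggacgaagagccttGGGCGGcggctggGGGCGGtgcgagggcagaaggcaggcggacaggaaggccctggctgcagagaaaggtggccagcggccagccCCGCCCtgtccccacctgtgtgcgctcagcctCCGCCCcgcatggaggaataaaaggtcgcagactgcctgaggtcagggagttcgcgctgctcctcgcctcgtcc

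A window was found for 40 of the 58 members, as 41 windows because Krt13 has 2. All 3 motifs were searched on both strands, and none of them overlap in the windows printed. TATAAA stood in 14 of 18 hair follicle windows, 3 of 13 epidermal windows and 2 of 5 simple windows, against 13.6% of all 32851 promoter windows of this length. In 9 of the hair follicle genes it began 26 to 40 bases before the start on the strand of the gene, a position not counted over all windows. In the others it lay elsewhere, as in Krt42 at 20 bases after the start and in Krt72 and Krt84 on the opposite strand. TGANTCA stood in 5 of the 41 member windows, those of Flg2, Ivl and Lor and both of Krt13, against 7.81% of all windows. GGGCGG stood in 2 of the 41 member windows, those of Krt7 and Krt75, against 35.7% of all windows. Such matches describe the letters in a window and do not show that a factor was bound there.

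The edgeR filter on low counts kept 21 of the 58 members for the test of KO against KO+NM1. Another 28 had at least 10 counts in some piece but not in enough pieces to be kept, 27 of them highest in KO piece 02, and 9 had fewer than 10 counts in every piece. Krt12 and Krt76, keratins of the cornea and the palate, had 0 counts in all 7 pieces. Of the 21 tested members, 4 were higher in the KO pieces (Tchh, Lor, Krt71 and Krt80) and 5 were lower (Krt7, Krt8, Krt19, Krt4 and Krt222), where a call needed both a 2-fold difference and an adjusted p below 0.05. Over all 16887 genes tested 17.1% were higher and 20.3% were lower by the same rule. Their median log2 fold change was -0.0017, and that of the 21 members was -0.26. With 4 of 21 and 5 of 21 the members were called about as often as genes in general. The count of 4 was set by single pieces: it was 20 without KO piece 03, where most hair follicle keratins then passed, and 2 without KO piece 02, KO+NM1 piece 02 or KO+NM1 piece 04. The 3 KO pieces were all above the 4 KO+NM1 pieces for 3 of the 21 (Tchh, Lor and Krt80) and below for 5 (Krt7, Krt8, Krt18, Krt19 and Krt222), where these shares were 30.5% and 26.4% over all genes tested.

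**Figure D2:**
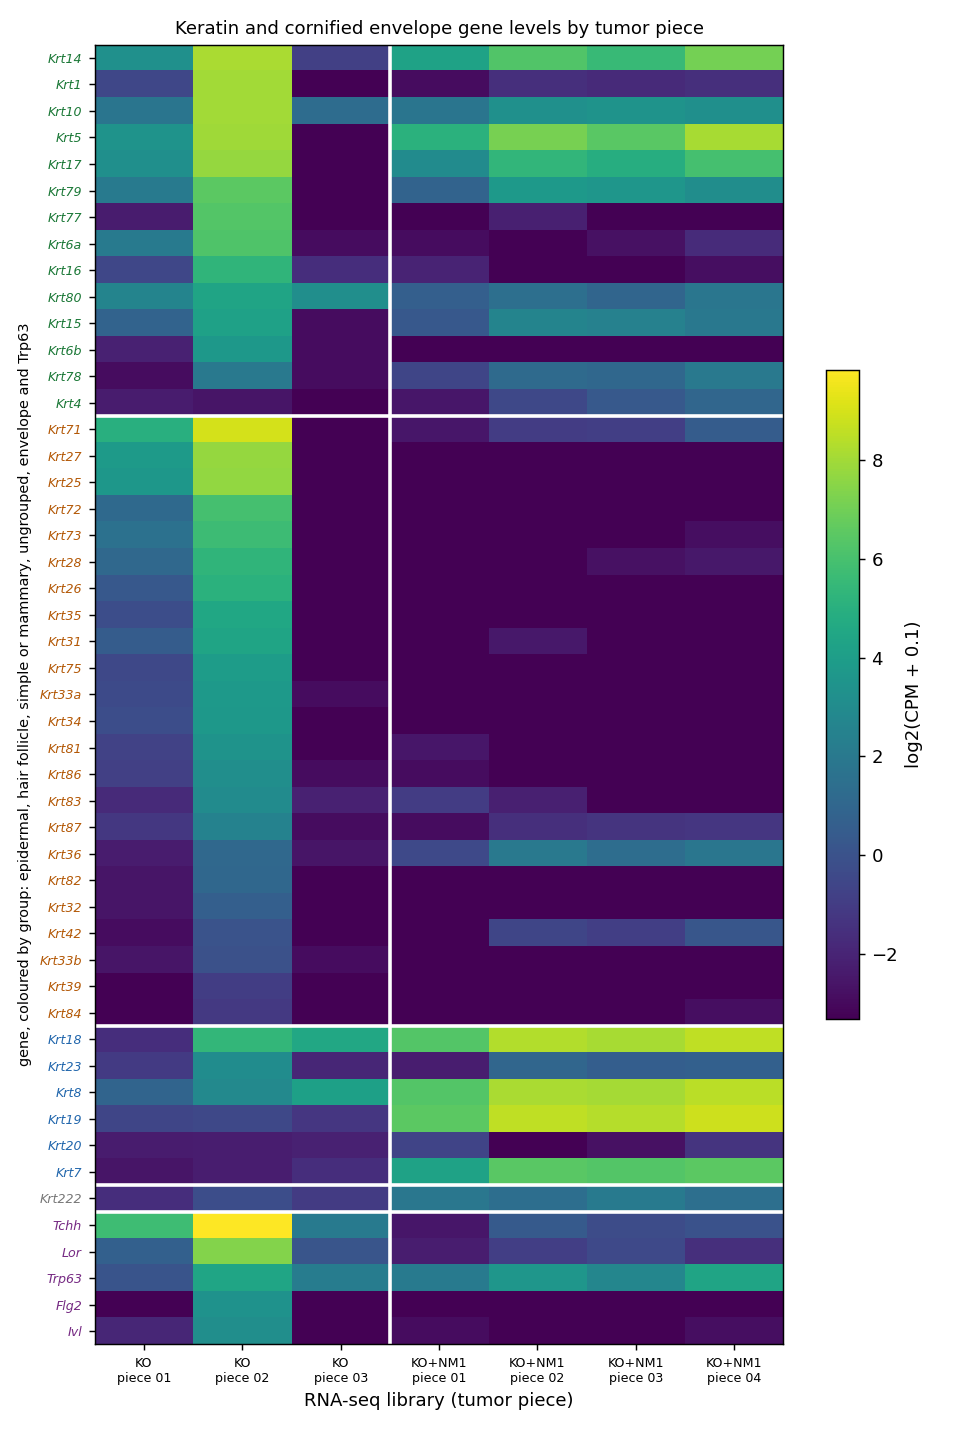
Heat map of log2(CPM + 0.1) for the 49 members with at least 10 counts in some piece, 1 row per gene and 1 column per tumor piece, with gene names coloured by group. The hair follicle block is bright in KO piece 02, dimmer in KO piece 01 and mostly dark elsewhere, with Krt36, Krt42 and Krt71 among the exceptions. Krt7, Krt8, Krt18 and Krt19 are bright in the 4 KO+NM1 pieces.

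The simple keratins set the KO+NM1 tumor apart most sharply. Krt19, a type I keratin without a fixed partner that is found in ducts (ENSMUSG00000020911, chromosome 11 from 100140810 to 100148665), had 17, 18 and 10 counts in KO pieces 01 to 03 and 2510, 9443, 6708 and 11006 counts in KO+NM1 pieces 01 to 04. These are 0.507 ± 0.156 CPM (SD, n = 3) against 315 ± 157 CPM (SD, n = 4). No KO piece came near a KO+NM1 piece, and the log2 fold change was -9.27 (± 0.56 SE, edgeR adjusted p = 0.000375). Krt7 (ENSMUSG00000023039, chromosome 15 from 101411043 to 101430313) had 2, 3 and 7 counts in the KO pieces and 526, 2135, 1593 and 2213 in the KO+NM1 pieces. Its log2 fold change was -8.95 (± 0.74 SE, edgeR adjusted p = 0.0005). In both genes the lowest KO+NM1 value was that of piece 01.

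Krt8 and Krt18, the partners of the simple epithelial filament, lie close to each other on chromosome 15 (Krt8 from 101996698 to 102004482 and Krt18 from 102028180 to 102032027) and were found in the KO tumor as well. Krt8 had 53, 208 and 540 counts in KO pieces 01 to 03 and, in KO+NM1 pieces 01 to 04, 2148, 7115, 5429 and 8749, or 8.93 ± 8.16 CPM (SD, n = 3) and 249 ± 120 CPM (SD, n = 4). The groups did not overlap, and the log2 fold change was -4.80 (± 0.77 SE, edgeR adjusted p = 0.00533). Krt18 had 7, 1196 and 714 counts in the KO pieces and 2196, 7869, 5561 and 9175 in the KO+NM1 pieces. Every KO piece again lay below every KO+NM1 piece, but KO pieces 02 and 03 were far above piece 01, and the log2 fold change of -3.59 (standard error 1.18) had an adjusted p of 0.0627 from edgeR. It passed with an adjusted p of 0.0207 without KO piece 01 and 0.0202 without KO+NM1 piece 01, from edgeR, and of 0.00251 with DESeq2 and 0.00443 with limma voom. In the other 11 of 15 alternatives it did not pass, with an adjusted p of up to 0.146.

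The remaining simple keratins were low. Krt20, of gut and urinary tract epithelium and Merkel cells, had 3, 3 and 4 counts in the KO pieces and 15, 0, 1 and 7 in the KO+NM1 pieces, too few to be tested. Krt23 had 11, 240 and 5 counts in the KO pieces and 3, 48, 29 and 37 in the KO+NM1 pieces, and the groups overlapped (log2 fold change 1.24, adjusted p = 0.478 from edgeR). Of the 6 simple or mammary keratins 5 were tested, with a median log2 fold change of -4.80. Of these 3 were lower in the KO pieces, where 20.3% of all genes tested were. Krt222, an ungrouped keratin-like gene, had 7, 22 and 12 counts in the KO pieces and 98, 64, 82 and 66 in the KO+NM1 pieces without overlap (log2 fold change -2.79, standard error 0.44, adjusted p = 0.00323 from edgeR).

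The basal keratins were found in both tumors, with values that overlapped. Krt5 (ENSMUSG00000061527, chromosome 15 from 101707070 to 101712898) had 319, 7180 and 0 counts in KO pieces 01 to 03 and, in KO+NM1 pieces 01 to 04, 927, 3451, 1779 and 6677. Its partner Krt14 (ENSMUSG00000045545, chromosome 11 from 100203162 to 100207548) had 289, 8176 and 14 counts in the KO pieces and 517, 1913, 932 and 3301 in the KO+NM1 pieces. For both genes KO piece 03 was lowest, KO piece 02 lay among or above the KO+NM1 pieces, and the groups overlapped. The log2 fold change was -0.63 for Krt5 (± 1.76 SE, edgeR adjusted p = 0.79) and 0.49 for Krt14 (± 1.59 SE, edgeR adjusted p = 0.815). Without KO piece 02 that of Krt14 turned to -3.90 (adjusted p = 0.0708 from edgeR) and that of Krt5 was -4.78 (adjusted p = 0.106). With limma voom Krt5 was called lower (-7.40, adjusted p = 0.0218).

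Krt17, Krt15 and Krt79, keratins of the outer root sheath, the follicle bulge and the sebaceous duct, and Trp63 also overlapped between the tumors. Krt17 had 276, 6139 and 0 counts in the KO pieces and 220, 994, 598 and 1512 in the KO+NM1 pieces. Krt15 had 51, 535 and 1 against 31, 146, 109 and 91, and Krt79 had 120, 2673 and 0 against 48, 326, 242 and 209. Trp63 (chromosome 16 from 25683763 to 25892102) had 29, 617 and 138 counts in the KO pieces and 110, 297, 130 and 502 in the KO+NM1 pieces, so that KO piece 01 was lowest and KO piece 03 lay above KO+NM1 piece 01 in CPM. The adjusted p of these 4 genes ran from 0.394 to 0.844 in edgeR.

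Krt78 and Krt36 were seen in all KO+NM1 pieces as well as in KO piece 02. Krt78, of stratified epithelia, had 1, 111 and 1 counts in the KO pieces and 16, 54, 41 and 96 in the KO+NM1 pieces, and Krt36, listed as a hair keratin, had 3, 61 and 2 against 18, 94, 51 and 86. Neither passed with all pieces (adjusted p = 0.697 and 0.258 from edgeR), and without KO piece 02 both were lower in the KO pieces, with log2 fold changes of -5.96 (adjusted p = 0.00928) and -5.02 (adjusted p = 0.0113). Krt42 had 1, 27 and 0 counts against 0, 14, 9 and 25 (adjusted p = 0.741 from edgeR). Krt4, a keratin of mucosal epithelia, had 3, 2 and 0 counts in the KO pieces and 2, 15, 24 and 47 in the KO+NM1 pieces, with overlap. Its adjusted p of 0.032 from edgeR rested on these few counts and was 0.071, 0.0818 and 0.084 without KO pieces 01, 02 and 03, and the filter on low counts no longer kept it without KO+NM1 piece 02, 03 or 04.

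Keratins of differentiated and activated epidermis belonged almost wholly to KO piece 02. Krt1 (ENSMUSG00000046834, chromosome 15 from 101845426 to 101850794) had 18, 7371 and 0 counts in KO pieces 01 to 03 and 1, 6, 4 and 6 in the KO+NM1 pieces. Its partner Krt10 had 100, 7308 and 73 counts in the KO pieces and 91, 234, 217 and 228 in the KO+NM1 pieces, so that a low level of Krt10 was found where Krt1 was almost missing. The log2 fold change of Krt10, 3.40 (± 1.45 SE, edgeR adjusted p = 0.102), turned to -1.64 without KO piece 02 (adjusted p = 0.0596). Krt77, a suprabasal type II keratin, had 2256 counts in KO piece 02 and at most 3 in any other. Krt6a and Krt16, partners in the outer root sheath and in wounded epidermis, had 120, 2114 and 1 and 18, 1133 and 7 counts in the KO pieces, and at most 5 and 4 counts in any KO+NM1 piece. Krt6b, a close copy of Krt6a, had 376 counts in KO piece 02 and at most 4 elsewhere, and reads of such copies (also Krt33a and Krt33b, or Krt81, Krt83 and Krt86) may have been assigned to either or discarded by the counting.

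Krt80 departed from this pattern. It is a type II keratin found in many epithelia, and it had 179, 596 and 275 counts in the KO pieces and 41, 67, 37 and 85 in the KO+NM1 pieces. All 3 KO pieces lay above all KO+NM1 pieces, at 11.9 ± 7.74 CPM (SD, n = 3) against 2.38 ± 0.904 CPM (SD, n = 4). The log2 fold change was 2.32 (± 0.50 SE, edgeR adjusted p = 0.00834). Without KO piece 02 it was 1.54 (adjusted p = 0.0359). Krt80 had the highest count of an epidermal keratin in KO piece 03.

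The envelope genes were also led by KO piece 02. Tchh (ENSMUSG00000052415, chromosome 3 from 93442330 to 93449077), the trichohyalin of the inner root sheath and hair medulla, was the member with the most counts, with 1628, 26251 and 122 reads from KO pieces 01 to 03 against 2, 30, 15 and 22 from the KO+NM1 pieces. The groups did not overlap (p = 0.0286 in an exact permutation test, two-sided, which 3 against 4 pieces cannot go below), with a log2 fold change of 8.78 (± 1.55 SE, edgeR adjusted p = 0.00833) that came down to 5.18 without KO piece 02 (adjusted p = 0.0187). The permutation test, made on group means, also gave 0.0286 for Lor, Krt80 and Krt222. It gave 0.0571 for Krt7, Krt8, Krt18 and Krt19, although their groups did not overlap either, and 0.143 for Krt71. The call of Tchh was lost with limma voom (5.05, adjusted p = 0.374) and held in 13 of 15 alternatives. Lor (ENSMUSG00000043165, chromosome 3 from 92080271 to 92083142) had 46, 4753 and 30 counts against 3, 11, 13 and 6, again without overlap. Its log2 fold change of 7.29 (± 1.73 SE, edgeR adjusted p = 0.019) came down to 1.69 without KO piece 02 (adjusted p = 0.0968), and the adjusted p was 0.0543 and 0.0558 without KO+NM1 pieces 02 and 04. Flg2 had 303 counts in KO piece 02 and 0 in the other 6 pieces, and Ivl had 5, 261 and 0 counts in the KO pieces and at most 1 in a KO+NM1 piece.

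The hair follicle keratins were the most restricted group. Of the 24 genes, 23 had at least 10 counts in KO piece 02 and 15 in KO piece 01, while 23 had 3 counts or fewer in KO piece 03. In the KO+NM1 pieces 13 genes had 0 counts in every piece and 19 had 3 or fewer in every piece. Krt71 (ENSMUSG00000051879, chromosome 15 from 101733949 to 101743109) had 952, 14441 and 0 counts in the KO pieces and 2, 10, 9 and 32 in the KO+NM1 pieces. KO piece 03 thus lay below the KO+NM1 pieces and the groups overlapped. The test gave a log2 fold change of 8.31 (± 1.98 SE, edgeR adjusted p = 0.023), and the call was lost without KO piece 02 (4.70, adjusted p = 0.0995) and without KO+NM1 pieces 02 or 03 (adjusted p = 0.0665 and 0.0632).

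Krt25 and Krt27, the type I keratins of the inner root sheath, had 366 and 427 counts in KO piece 01 and 5980 and 6145 in KO piece 02, and 0 in the other 5 pieces. Krt26, Krt28, Krt72 and Krt73, further inner root sheath keratins, had 966 to 1793 counts in KO piece 02 and at most 2 outside KO pieces 01 and 02. The shaft keratins were lower. Krt35, an early keratin of the hair matrix and cuticle, had 23 and 650 counts in KO pieces 01 and 02, Krt31 had 40 and 587, and Krt81 had 15 and 304. Krt75, of the companion layer, had 19 and 443. Of the other hair follicle keratins with at least 10 counts in a piece, Krt33a, Krt34, Krt83, Krt86 and Krt87 had 160 to 388 counts in KO piece 02, and Krt32, Krt33b, Krt39, Krt82 and Krt84 had 10 to 58. A further fit kept every gene with at least 1 count. In it 14 of 56 members were higher in the KO pieces, where 9.36% of 28894 genes were. Of the 14, 6 were hair follicle keratins. Members added by this fit were mostly highest in KO piece 02, so the count repeats the level of that piece. Its calls also turned on single reads. Krt25 and Krt27, at 0 counts in the KO+NM1 pieces, were not called (edgeR adjusted p = 0.0528 and 0.0516). Krt73, with 1 count there, was (0.0167). KO piece 02 was then left out of this fit, a setting chosen after seeing the data. Of 51 members 1 was higher, Tchh, where 7.68% of 28354 genes were, and 6 were lower, where 9.12% of genes were. Few genes had this pattern by a rule chosen after the values were seen. Of the 12335 genes with at least 100 counts in KO piece 02, 66 had at most 3 counts in KO piece 03 and in each KO+NM1 piece. Among these 66 were 17 of the 37 members with at least 100 counts in KO piece 02, and 13 of the 17 were hair follicle keratins. The 66 also held 7 keratin-associated proteins and 11 genes of the cornification list. As the rule followed the values seen, the count of members repeats them.

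**Figure D3:**
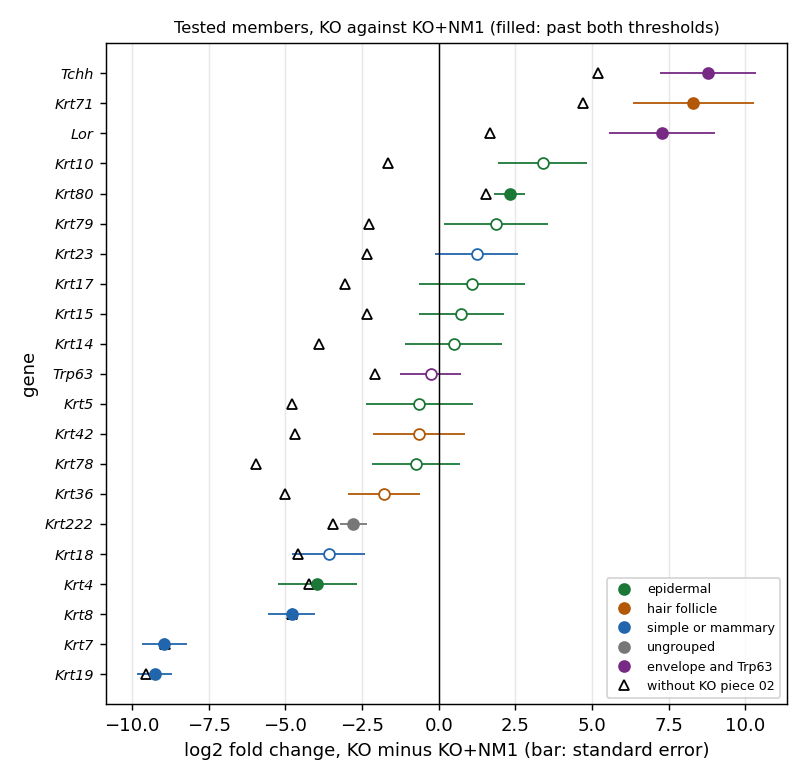
Log2 fold changes of KO minus KO+NM1 with standard errors for the 21 tested members, filled where past both thresholds, and the value without KO piece 02 as open triangles. The triangles of Krt7, Krt8, Krt19 and Krt222 stay near their circles, while those of Krt10, Krt14, Krt15, Krt17, Krt23 and Krt79 cross to the other side of 0 and Krt71, Lor and Tchh shrink. Krt4 rests on 3 or fewer counts in each KO piece.

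KO piece 01 held a small part of the hair follicle set of KO piece 02. KO piece 02 had at least 100 counts for 16 hair follicle keratins. Their CPM in piece 01 was 2.46% to 6.68% of that in piece 02, with a median of 5.25%. The exact 95% counting interval of 11 of them held 5%, a value near their own median. Those of Krt25, Krt27 and Krt71 lay above 5% (Krt71 5.93 to 6.77), and those of Krt26 and Krt72 lay below (Krt72 2.68 to 4.46). The 16 genes thus did not share 1 ratio within counting error. Over all 12335 genes with at least 100 counts in KO piece 02 the median of this ratio was 103%, and 4.04% of them were under 25%. Tchh stood at 5.96%, Krt6a at 5.46%, and Krt5, Krt17 and Krt79 at 4.27%, 4.32% and 4.32%, while Krt15 was higher at 9.16% (interval 6.74 to 12.2) and Krt16, the partner of Krt6a, lower at 1.53% (0.902 to 2.42). Several keratins and envelope genes of differentiated epidermis were scarcer in piece 01. Krt1 stood at 0.235% (interval 0.139 to 0.371), Krt77 at 0.128% (0.0263 to 0.374), Lor at 0.93% (0.68 to 1.24) and Flg2 at 0 with an upper bound of 1.18%. The intervals of these 4 genes and of Krt10 (1.32%, 1.07 to 1.60) lay below the lowest hair follicle value of 2.46%, whereas that of Ivl (1.84%, 0.593 to 4.35) held it. That lowest value was of Krt83, from 6 counts in KO piece 01, and is itself uncertain (0.895 to 5.45). In KO piece 03 the median ratio of the 16 genes to piece 02 was 0.

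**Figure D4:**
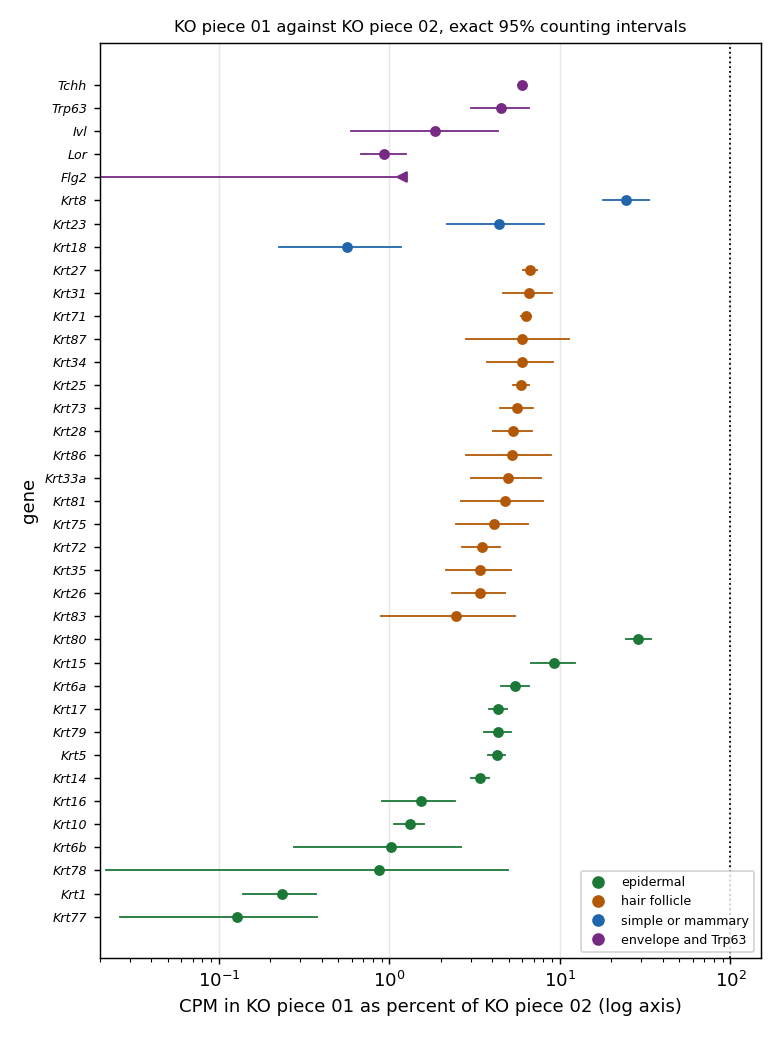
CPM in KO piece 01 as a percent of that in KO piece 02, on a log axis with exact 95% counting intervals, for the 37 members with at least 100 counts in KO piece 02; the arrow for Flg2 marks an upper bound. The hair follicle keratins lie between 2.46% and 6.68%, Krt77 and Krt1 lie lowest among the points at 0.128% and 0.235%, and Krt8 and Krt80 lie highest at 24.5% and 28.9%.

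Partner keratins were compared within a piece by their per-length levels (CPM per kilobase of exon). In the KO+NM1 pieces Krt18 stood at 1.39, 1.51, 1.40 and 1.43 times the level of Krt8, a narrow range although both genes differed more than 3-fold between piece 01 and the others. In KO pieces 01 to 03 the ratio was 0.18, 7.83 and 1.80, the first from 7 counts of Krt18. Krt14 stood at 0.697, 0.693, 0.655 and 0.618 times the level of Krt5 in the KO+NM1 pieces and at 1.13 and 1.42 in KO pieces 01 and 02. The order of the partners in KO piece 02 was thus opposite to that in the KO+NM1 pieces. The ratio of KO piece 01 was near 1 and came from 289 and 319 counts, and KO piece 03 had no Krt5 count. Krt25 stood at 0.423 and 0.455 times the level of Krt71 in KO pieces 01 and 02. Krt10 stood at 11.6 and 2.07 times Krt1 in KO pieces 01 and 02, the first from 18 counts of Krt1. In the KO+NM1 pieces with more than 3 counts of Krt1 it stood at 79.4 to 113 times, from only 4 to 6 counts of Krt1. These ratios are given as descriptions, with no test. Per length, the leading keratins were Krt71, Krt14 and Krt27 in KO piece 02 (229, 161 and 137) and Krt18, Krt19 and Krt8 in KO+NM1 piece 04 (262, 244 and 184).

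**Figure D5:**
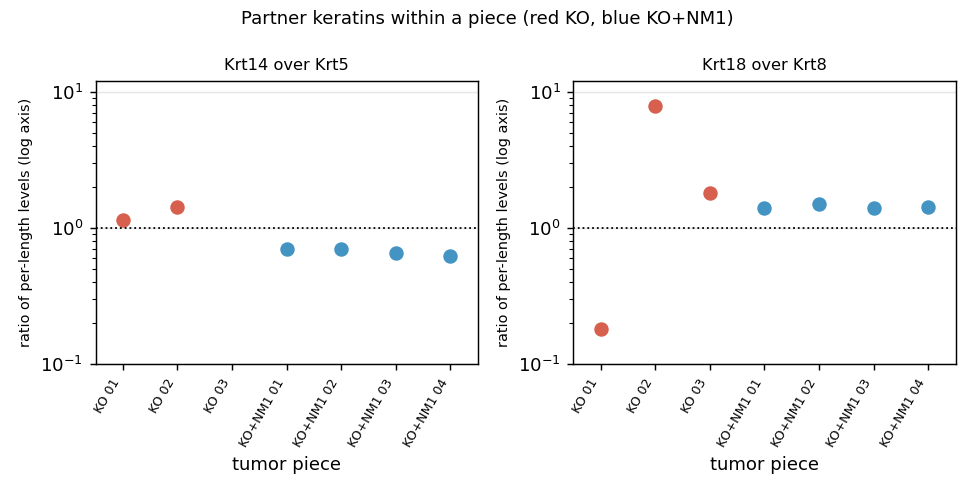
Ratio of per-length levels of Krt14 to Krt5 and of Krt18 to Krt8 in each tumor piece, on log axes, with KO pieces in red and KO+NM1 pieces in blue, and KO piece 03 has no point for Krt14 to Krt5 because it had no Krt5 count. The KO+NM1 ratios lie at 0.618 to 0.697 and at 1.39 to 1.51, and the KO ratios lie outside these ranges.

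Other genes of the keratinizing programs were examined by lists. For the counts of called genes here and below, the shares over all 16887 genes tested were 17.1% higher and 20.3% lower. Keratin-associated proteins, which embed the hair keratins, followed the hair keratins. Of 57 genes 28 reached 10 counts in some piece and 0 were tested, and their summed level was 3.7, 92.4 and 0.066 CPM in KO pieces 01 to 03 and at most 0.0411 CPM in a KO+NM1 piece. Of the 33 cornification genes, which make and cross-link the envelope, 14 were tested, 5 were higher and 1 was lower in KO tumor, and their median log2 fold change was 2.35. All 5 were highest in KO piece 02. Sprr1a, a small proline-rich envelope precursor, had 670, 1928 and 482 counts in the KO pieces and 0, 1, 4 and 5 in the KO+NM1 pieces (adjusted p = 0.000943 from edgeR), and Cst6, an inhibitor of the proteases of cornification, had 429, 2306 and 381 against 2, 10, 7 and 4 (adjusted p = 0.00133). Elovl4 and Alox12b, which act in the making of barrier lipids, had 315, 925 and 149 and 13, 54 and 11 counts in the KO pieces, and Alox12b had 0 in the KO+NM1 pieces. Dmkn, a secreted protein of the upper epidermis, had 25, 2187 and 4 counts against 0, 12, 6 and 9, so that it belonged almost wholly to KO piece 02 (adjusted p = 0.0379 from edgeR). The gene that fell was Ly6d, with 38, 776 and 96 counts against 9692, 1646, 926 and 2008, where the highest value was that of KO+NM1 piece 01 and its B cell markers (adjusted p = 0.0489 from edgeR). Ly6d is also made by B cells, and the part of these in the result was not tested.

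Of the 15 hair follicle regulators, 14 were tested, 4 were higher and 2 were lower in the KO pieces. Hoxc13, a transcription factor of the hair matrix, had 336, 435 and 209 counts in the KO pieces and at most 1 count in a KO+NM1 piece (adjusted p = 0.00035 from edgeR), and Foxn1, the factor mutated in nude mice, had 20, 95 and 13 and at most 1 (adjusted p = 0.00425). Both were thus counted in KO piece 03, where all hair follicle keratins together had 10 counts. Gata3, which acts in the inner root sheath and in mammary luminal cells, fell, with 338, 622 and 315 counts against 1284, 3092, 2206 and 3940 (log2 fold change -2.94, adjusted p = 0.00298 from edgeR). Lgr6 was the other that fell (-1.61, adjusted p = 0.0433). Of the 13 keratinocyte junction genes 10 were tested, and 1 was lower, Jup, the plakoglobin shared by all desmosomes (-1.34, adjusted p = 0.0423 from edgeR). Of 11 epidermal transcription factors, 10 were tested and 2 were lower, close to the 20.3% of all genes tested. Ovol2, which keeps epithelial identity, had 0, 3 and 0 counts against 19, 69, 43 and 66 (adjusted p = 0.00468 from edgeR), and Klf4, of the epidermal barrier, fell by 1.42 on the log2 scale (adjusted p = 0.0302). All 9 hemidesmosome and basal adhesion genes were tested, 1 rose, Plec (1.60, adjusted p = 0.00056 from edgeR), and 4 fell, among them Lamb3, a chain of basement membrane laminin (-3.60, adjusted p = 0.00413).

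Markers of other cell types also differed between the tumors. Between the KO pieces keratin reads ran from 1676 to 83261. The endothelial, myoepithelial and mesothelial lists varied far less there, at 175 to 195, 31.7 to 46.6 and 93.1 to 107 CPM, the last almost all from Msln. Some other lists varied widely, among them cornification at 44.2 to 771 CPM and skeletal muscle at 2700 to 21209 CPM. The mammary luminal list summed to 12.8, 71.4 and 20 CPM in KO pieces 01 to 03 and was far higher in the KO+NM1 pieces, at 630, 2404, 2260 and 3765 CPM, and 14 of its 16 tested genes were lower in the KO pieces. Ltf, the milk protein lactoferrin, had 2, 8 and 7 counts against 4041, 14710, 14264 and 38693, and Prlr, the prolactin receptor, 2, 7 and 8 against 1790, 6209, 5076 and 7574. Wap, a whey protein of late pregnancy and lactation, had 0 counts in 5 pieces and 2 in the others. All 4 myoepithelial and smooth muscle genes were lower in the KO pieces, led by Oxtr (0, 16 and 5 counts against 675, 2322, 1937 and 4609) and Cnn1, and so were all 6 endothelial genes. The white adipocyte list, with 10 of 10 genes lower, summed to 114 to 298 CPM in the KO pieces, 4612 CPM in KO+NM1 piece 01 and 23554 to 33675 CPM in the others, so that piece 01 was lowest among the KO+NM1 pieces for fat, luminal and simple keratin genes alike. The mesothelial list, whose cells also carry simple keratins, had Upk3b and Upk1b at 2 counts or fewer and Wt1 at 13 or fewer in every piece. Of its 2 tested genes, Msln was higher in the KO pieces (2789, 3080 and 3186 counts against at most 47 in a KO+NM1 piece), and Lrrn4 was lower (4, 1 and 0 counts against 3, 56, 35 and 29, edgeR adjusted p = 0.0217). The part of these cell types in the keratin differences was not tested.

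Within the KO tumor the hair keratins and the muscle genes were ordered differently. The skeletal muscle list, with 10 of 10 genes higher in the KO pieces, summed to 2700, 21209 and 17466 CPM in KO pieces 01 to 03, so that piece 03 was rich in muscle and lacked hair keratins. The melanocyte list summed to 2.23, 19.8 and 0.825 CPM in the KO pieces and 2.34 to 2.83 CPM in the KO+NM1 pieces, with KO piece 02 again highest. The sebaceous list summed to 1.83, 5.96 and 3.2 CPM in the KO pieces and 0.872 to 2.27 CPM in the KO+NM1 pieces. In each of these 2 lists 3 genes were tested and 0 passed in edgeR, with 0 at an unadjusted p under 0.05 and 0 in DESeq2, while limma called 1 sebaceous gene. Their part in the level of KO piece 02 was not tested.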

How the data were processed

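RNA from 3 pieces of NM1 KO tumor and 4 pieces of KO+NM1 tumor was sequenced. The authors deposited raw read counts per Ensembl gene for each piece. Per the study's methods, the reads were trimmed with Trimmomatic 0.36, aligned to GRCm38 with HISAT2 2.0.4, handled with SAMtools 0.1.19 and counted with HTSeq. The annotation release and the strand setting are not given in the sources used here, and 12 members share exon bases with a gene on the opposite strand (the overlapping genes had at most 6 counts). Symbols came from GENCODE M21 for 46005 of 46603 IDs.

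Counts were tested with edgeR 4.0.16 in R 4.3.3 (quasi-likelihood test, TMM scaling, filterByExpr with a minimum count of 10, Benjamini-Hochberg adjustment over all genes tested). A call needed an adjusted p under 0.05 and a 2-fold change, and the test was checked on simulated counts. The exact permutation test used all 35 splits of the 7 pieces. DESeq2 1.42.0, limma 3.58.1 (voom with quality weights), other scalings and filters, a piece-number block and leaving out each piece were alternatives. The members and lists were chosen with earlier results of these data known. Values are given for members with a mean of at least 5 CPM in a group, for keratin partners and for the envelope genes, and from each list for at most the 2 largest changes in each direction. Other members and list genes named were chosen after their values were seen. Pieces of a group differed by far more than counting noise (chi-square per degree of freedom from 35.2 to 687), so none was merged as a technical repeat. This does not make them independent. The tests treated each piece as a replicate, although by the sample descriptions the pieces of a condition came from 1 tumor. Totals of 24088309 to 28326568 reads set the precision, and intervals cover counting error only.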

Additional observations from a re-analysis of the deposited data

Results flagged for a closer look

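Among 22 values examined in the 4 KO+NM1 pieces, that of Krt7 was flagged because piece 01 (19.1 CPM) lay far below the other 3 (78.7 to 90.9 CPM). Its gap to the nearest piece was 0.8295 of the whole range, just past the 95% critical value for 4 samples, and chance alone flags about 1 in 20 such groups.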

How the results depend on the processing

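The lower calls of Krt7, Krt8, Krt19 and Krt222 kept their direction and passed the test in every alternative that tested them. The higher calls of Lor and Krt71 were lost without single pieces and in other alternatives, and each passed in 8 of 14. Tchh passed without any single piece but not with limma voom, and Krt80 passed in 15 of 16 alternatives. Over all genes, a test against a 2-fold change left 1707 higher and 2074 lower, and the adjusted p alone gave 4345 higher. With every gene of at least 1 count kept, 14 of 56 members were higher, of them 5 epidermal and 6 hair follicle keratins. With at least 10 counts in every library, 1 member was higher and 2 were lower, with 0 hair follicle keratins higher and 0 epidermal keratins lower. limma voom with quality weights gave 1 higher and 9 lower members, with 0 hair follicle keratins higher, 1 hair follicle keratin lower and 3 epidermal keratins lower, and it turned Krt14 to -3.78, Krt15 to -3.25, Krt17 to -5.68, Krt79 to -4.37 and Krt23 to -1.24. The test against a 2-fold change left 0 epidermal keratins lower.

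Leaving out single pieces gave 2 to 20 members higher, 1 to 4 epidermal and 0 to 14 hair follicle keratins higher, and 0 to 1 epidermal and 0 to 1 hair follicle keratins lower. The log2 fold changes then ran from -2.08 to 0.24 for Trp63, -1.64 to 3.86 for Krt10, -3.90 to 1.02 for Krt14, -2.34 to 1.21 for Krt15, -3.05 to 1.56 for Krt17, -2.27 to 2.33 for Krt79, -2.33 to 1.68 for Krt23 and -0.57 to -0.45 for Myo1c. Every gene of at least 1 count without KO piece 02, chosen after seeing the data, gave 1 member higher, 0 epidermal and 0 hair follicle keratins higher, 1 hair follicle keratin lower, and Krt10 -1.62, Krt14 -3.88, Krt15 -2.32, Krt17 -3.03, Krt79 -2.25, Krt23 -2.31 and Myo1c -0.49 (adjusted p = 0.11 from edgeR). For Myo1c, library size alone gave -0.25 (adjusted p = 0.297) and the test against a 2-fold change -0.43 (adjusted p = 1).

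Piece numbers did not pair the samples (correlations of deviations 0.0802, 0.1025 and -0.0165). A block on the piece number gave 1 member higher, 0 hair follicle keratins higher, 0 epidermal keratins lower, Krt14 -1.33, Krt15 -0.44, Krt17 -0.46 and Myo1c -0.46 (adjusted p = 0.126 from edgeR). The block also ended the calls of Tchh, Lor and Krt71 (adjusted p = 0.0617, 0.175 and 0.215 from edgeR). Over the named genes and all alternatives, 261 values kept their direction and side of the threshold, 21 lost the call, 11 gained one and 22 changed sign. Apart from these constructions the cause was not tested.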

Other observations

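Summed per length, type I keratins stood at 1.25, 1.42 and 1.73 times type II keratins in KO pieces 01 to 03 and at 2.11, 2.24, 2.22 and 1.94 times in KO+NM1 pieces 01 to 04. At least 10 counts were found for 31, 46 and 10 members in the KO pieces and for 17, 21, 19 and 20 in the KO+NM1 pieces. The median GC content of the promoter windows was 45.3% for the hair follicle keratins and 58% for the simple keratins, against 52.7% for all windows.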
